A study of Mus musculus with 16 samples.

Results

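Keratins of the hair shaft and of the inner root sheath were followed in whole dorsal skin of 16 mice. The set holds 10 genes, taken by their symbols from the 55359 gene rows counted in each mouse. Krt33a, Krt34, Krt35, Krt81, Krt85 and Krt86 are 6 keratins of the hair shaft, and Krt25, Krt27, Krt71 and Krt73 are 4 keratins of the inner root sheath. All mice were wild type, C57Bl/6 by the labels and C57Bl/6N by the text of the study, and 8 weeks old, with the back skin labelled as telogen, and each group held 4 mice with 1 library per mouse. UVB males and UVB females were irradiated on shaved back skin 3 times, once every 2 days, and by the study's description the skin was collected 6 hours after the last exposure, on day 5. No-UVB males and no-UVB females were not irradiated, and no transgene or other agent was given to any of the 4 groups. The study's reporting summary states, for its animals in general, that those whose back skin had entered anagen were left out. The comparisons asked whether UVB changed these keratins within each sex and whether the sexes differed.

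A hair is built by keratinocytes of the matrix at the base of the growing (anagen) follicle, which leave the cell cycle and fill with keratin filaments as they move up. Cells at the centre become the shaft, with its medulla, cortex and cuticle, and cells around it become the inner root sheath, a hardened sleeve that guides the shaft and is later broken down. Every keratin filament pairs a type I with a type II chain, so each compartment makes members of both types. In telogen, the resting phase, the matrix is absent, and the finished club hair sits in a follicle that makes neither shaft nor sheath.

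The type I members lie on chromosome 11 and the type II members on chromosome 15, in the keratin clusters of the mouse genome, and no other annotated gene overlapped any of them. The 250 bases before the start of 4 members are printed because all members moved together between mice, as described next. They are from the GRCm39 genome with the GENCODE M39 starts, on the strand of the gene and 5′ to 3′. Capitals mark a TATA box (TATAAA on that strand, beginning 20 to 40 bases before the start) and the TCF/LEF motif CTTTGAA with its variant CTTTGAT, its variant CTTTGTT and its variant CTTTGTA on either strand, which bind the factors of the Wnt pathway.
Krt71, type II, inner root sheath, chr15:101651545-101651794, minus strand: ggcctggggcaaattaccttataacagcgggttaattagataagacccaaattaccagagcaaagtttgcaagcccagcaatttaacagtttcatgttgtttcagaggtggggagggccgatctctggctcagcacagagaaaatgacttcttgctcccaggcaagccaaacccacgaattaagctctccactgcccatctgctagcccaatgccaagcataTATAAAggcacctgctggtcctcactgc
Krt25, type I, inner root sheath, chr11:99213778-99214027, minus strand: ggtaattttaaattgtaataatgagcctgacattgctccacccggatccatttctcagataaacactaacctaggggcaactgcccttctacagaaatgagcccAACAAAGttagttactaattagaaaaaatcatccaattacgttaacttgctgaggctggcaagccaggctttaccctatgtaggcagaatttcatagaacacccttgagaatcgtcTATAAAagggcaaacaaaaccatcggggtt
Krt34, type I, hair shaft cortex, chr11:99932381-99932630, minus strand: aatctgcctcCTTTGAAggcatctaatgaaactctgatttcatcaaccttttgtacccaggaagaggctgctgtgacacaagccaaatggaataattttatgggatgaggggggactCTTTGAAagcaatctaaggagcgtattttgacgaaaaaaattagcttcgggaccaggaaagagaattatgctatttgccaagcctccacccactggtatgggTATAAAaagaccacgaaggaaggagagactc
Krt85, type II, hair matrix and precortex, chr15:101422055-101422304, minus strand: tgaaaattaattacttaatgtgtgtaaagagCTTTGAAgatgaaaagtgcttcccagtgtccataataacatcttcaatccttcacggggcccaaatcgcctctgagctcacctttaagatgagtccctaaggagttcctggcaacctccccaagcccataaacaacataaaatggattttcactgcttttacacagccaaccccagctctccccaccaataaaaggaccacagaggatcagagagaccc
Among these, Krt71 held the TATA box alone, Krt25 and Krt34 held both motifs and Krt85 held the TCF/LEF motif alone. The TATA box was found before 7 of 10 members (not before Krt35, Krt81 or Krt85) and in 2.37% of 21770 promoters of protein-coding genes. The window of Krt35 was read from the start of its representative transcript, which lies inside the annotated gene, and it holds TATAAA farther from that start than the range searched. A TCF/LEF motif was found before 7 of 10 members, which were the 6 shaft keratins and Krt25, and in 14.6% of all promoters. These are matches of letters only, and no binding was measured.

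Levels are given as TMM CPM, the counts of a gene brought to the same total in every library after scaling by the trimmed mean of M-values, and 16495776 to 33404831 reads lay on genes per mouse, with a median of 21767339. A count of 3 equals 0.0933 to 0.191 CPM, depending on the library, and a gene at 0 counts may therefore be present up to that level. The RNA of the 10 members was found mostly in 2 of the 16 mice, both of them no-UVB males. In no-UVB male replicates 3 and 4 the 10 members summed to 49.6 and 88.8 CPM. In the other 14 mice their sum had a median of 0.957 CPM and lay between 0.650 and 3.44 CPM. Both of these mice stood above all other 14 for 10 of 10 members, where 1.70% of 22687 genes with at least 20 counts did so. They held 2696 of the 3087 counts of all members, or 87.3%, while they held 11.6% of all reads on genes. In whole skin, fewer cells of a type and less RNA per cell cannot be told apart. The libraries themselves were of ordinary depth, with 23370280 and 18397821 reads on genes, and 77.8 and 79.2% of their reads lay on genes against 70.1 to 77.7% in the other mice.

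**Figure D1:**
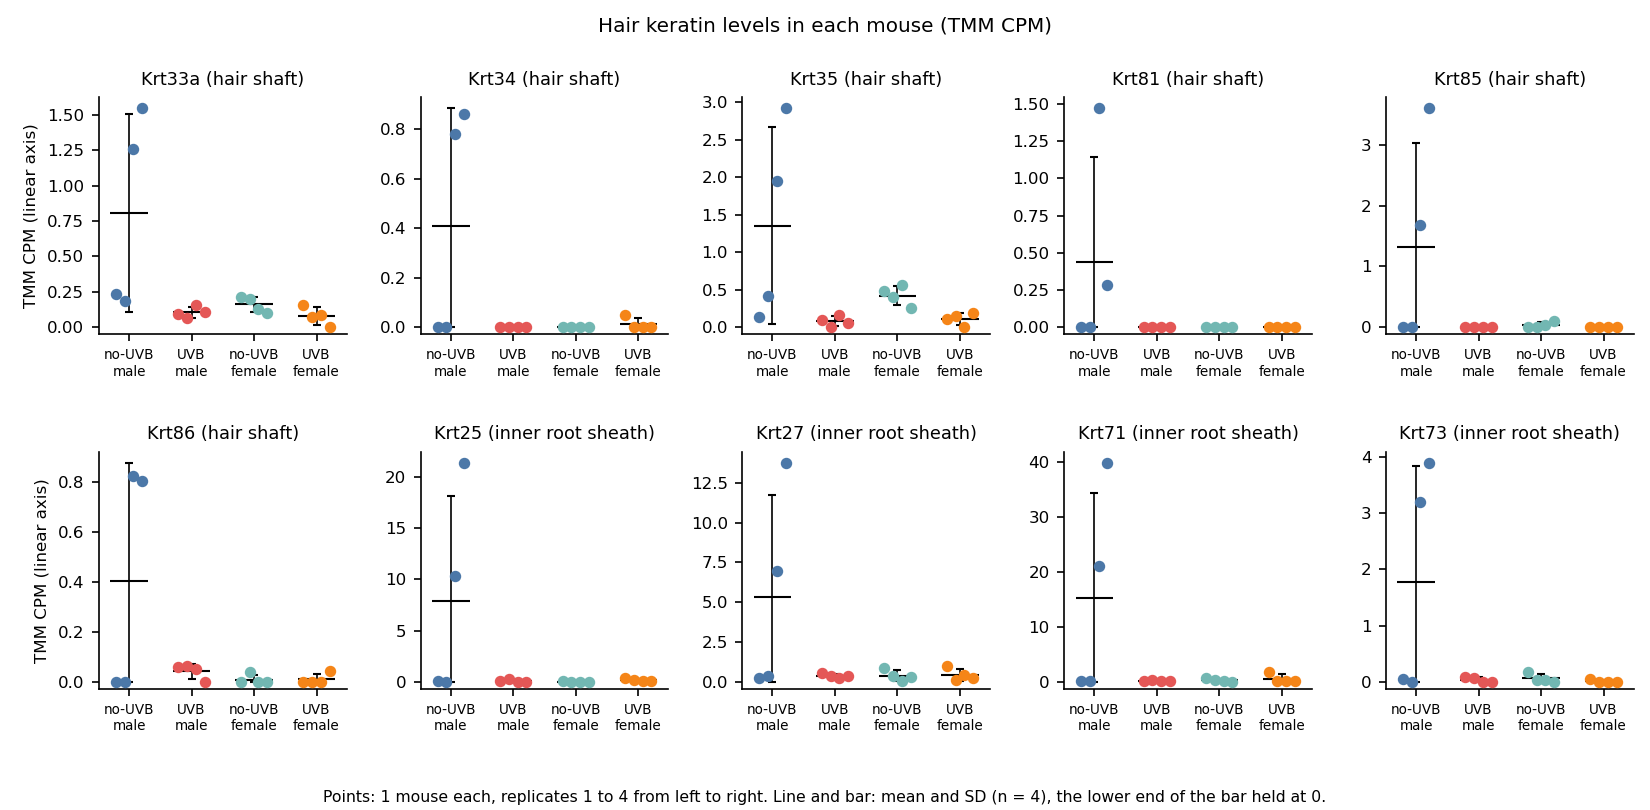
Level of each keratin in each mouse, with the 4 groups along the horizontal axis and TMM CPM on a linear vertical axis whose scale differs between panels. Points are mice, lines are group means and bars are SDs (n = 4), and in every panel the points of no-UVB male replicates 3 and 4 lie above those of all other mice, as for Krt71 at 21.1 and 39.8 CPM.

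Krt71 is a type II keratin of all layers of the inner root sheath, and mice that lack a working copy have curly hair. Krt71 measured 0.140, 0.230, 21.1 and 39.8 CPM in no-UVB male replicates 1 to 4. In UVB males it measured 0.124, 0.319, 0.211 and 0.156 CPM. Krt71 was thus high in 2 no-UVB males, while the other 2 lay within the range of the irradiated males. No-UVB females had 0.649, 0.396, 0.196 and 0 CPM of Krt71, and UVB females had 1.75, 0.252, 0.257 and 0.139 CPM. The groups overlapped in every comparison. The means were 15.3 ± 19.1 CPM in no-UVB males, 0.203 ± 0.0853 in UVB males, 0.310 ± 0.278 in no-UVB females and 0.599 ± 0.768 in UVB females (SD, n = 4 each).

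Krt25 and Krt27 are the type I partners of Krt71 in the sheath. Krt25 measured 0.0931, 0, 10.3 and 21.4 CPM in no-UVB males and 0.0622, 0.319, 0 and 0 CPM in UVB males. It measured 0.130 CPM in no-UVB female replicate 1 and 0 in the other 3 of that group, and 0.360, 0.180, 0.128 and 0.0465 CPM in UVB females. Of its 639 counts, 611 (95.6%) came from no-UVB male replicates 3 and 4. Krt27 was the 1 member with a count in every mouse. Krt27 measured 0.233, 0.368, 6.97 and 13.7 CPM in no-UVB males, 0.560, 0.382, 0.264 and 0.365 CPM in UVB males, 0.865, 0.356, 0.0654 and 0.303 CPM in no-UVB females and 0.977, 0.108, 0.428 and 0.232 CPM in UVB females. Its groups overlapped in every comparison too. Krt73, a type II keratin of the inner root sheath cuticle, measured 0.0466, 0, 3.20 and 3.90 CPM in no-UVB males and at most 0.173 CPM (4 counts) in any mouse of the other groups.

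Among the shaft keratins, Krt35 and Krt85 are the earliest to appear and mark the matrix and precortex. Krt35 measured 0.140, 0.414, 1.95 and 2.92 CPM in no-UVB males and 0.0933, 0, 0.158 and 0.0521 CPM in UVB males. In females it measured 0.476, 0.396, 0.556 and 0.252 CPM without UVB and 0.103, 0.144, 0 and 0.186 CPM with UVB. Krt35 was therefore the 1 member whose 2 female groups did not overlap, with UVB females lower, as was found for 5.97% of genes. Krt85 measured 0, 0, 1.69 and 3.61 CPM in no-UVB males and had no count in any of the 8 irradiated mice, and the no-UVB females held 3 counts of it in all. Of its 105 counts, 102 lay in no-UVB male replicates 3 and 4.

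Krt33a and Krt34 are type I keratins of the shaft cortex, and Krt81 and Krt86 are type II keratins of the same layer. Krt33a measured 0.233, 0.184, 1.26 and 1.55 CPM in no-UVB males and 0.0933, 0.0637, 0.158 and 0.104 CPM in UVB males, so that these groups did not overlap, as was found with UVB males lower for 13.8% of genes. It measured 0.101 to 0.216 CPM in no-UVB females and 0 to 0.154 CPM in UVB females. Krt34 measured 0, 0, 0.779 and 0.859 CPM in no-UVB males and had 1 count among the other 12 mice. Krt81 was found in no mouse but no-UVB male replicates 3 and 4, at 1.47 and 0.286 CPM, from 34 and 5 counts. Krt86 measured 0, 0, 0.822 and 0.802 CPM in no-UVB males and at most 0.0637 CPM elsewhere, from at most 2 counts a mouse. The cortex keratins thus rested on 14 to 34 counts in each of these 2 mice, apart from Krt81 with 5 in replicate 4. Near-identical stretches limit how far these genes can be told apart. Of the 100-base windows of the transcript, 28.6% in Krt81, 24.5% in Krt86, 17.5% in Krt34 and 12.4% in Krt33a were also found in a transcript of another gene, against 6.95% in Krt85 and at most 0.758% in the other 5 members.

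Both compartments contained keratins of both types, at like levels per kb of exon. In CPM per kb of exon, the inner root sheath members summed to 20.8 and 39.6 in no-UVB male replicates 3 and 4 and the shaft members to 3.73 and 4.57. The sheath keratins were therefore 5.58-fold (95% interval 4.76 to 6.54, counting error only) and 8.66-fold (7.39 to 10.1) above the shaft keratins in these libraries. Within the sheath, the ratio of type I (Krt25 and Krt27) to type II (Krt71 and Krt73) per length was 0.870 (0.764 to 0.989) and 0.981 (0.882 to 1.09). Within the shaft, the ratio of type I (Krt33a, Krt34 and Krt35) to type II (Krt81, Krt85 and Krt86) was 1.05 (0.782 to 1.40) and 1.21 (0.896 to 1.63). With all exon bases of a gene as its length, the interval thus included 1 in 3 of these 4 ratios. The representative transcripts of Krt33a, Krt35 and Krt81 hold 1683, 1722 and 1862 bases, against 2063, 2396 and 2138 exon bases. Ratios that use these genes depend on that choice, and reads lost to stretches shared between genes were not corrected for.

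**Figure D2:**
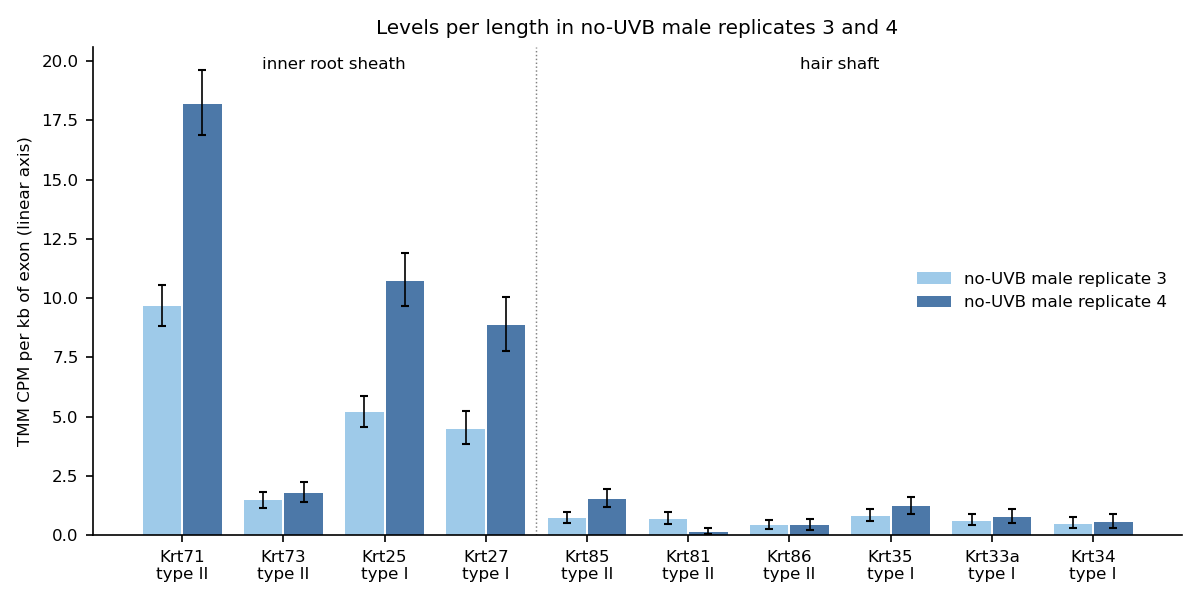
Level per length of each keratin, in TMM CPM per kb of exon on a linear axis, in no-UVB male replicate 3 (light bars) and replicate 4 (dark bars). Error bars are 95% Poisson intervals that cover counting error only, and Krt71 stands highest at 9.66 and 18.2 with Krt25 and Krt27 next, while every shaft keratin lies at or under 1.53.

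The 2 mice differed from each other in a way that followed the compartment in part. Replicate 4 had 1.89-fold (1.68 to 2.12) as much Krt71 as replicate 3, 2.07-fold (1.76 to 2.45) as much Krt25 and 1.97-fold (1.61 to 2.42) as much Krt27. Krt85 was 2.14-fold (1.41 to 3.27) higher in replicate 4. For Krt33a, Krt34, Krt35, Krt86 and Krt73 the interval of this ratio included 1. Krt81 ran the other way, with a ratio of 0.195 (0.0594 to 0.500). These intervals are exact binomial ones on the counts of a pair of libraries, and they compare those libraries rather than conditions.

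The share of counts held by these 2 mice set the members apart from nearly all genes. It ranged from 57.1% for Krt35 and 57.7% for Krt33a to 97.1% for Krt34 and Krt85 and 100% for Krt81, against a median of 11.1% over 22687 genes. A share of at least 50% was reached by 10 of 10 members and by 28 genes in all, or 0.123%. Of those 28 genes, 14 were keratins and 10 were keratin-associated proteins, the matrix proteins that fill the space between the filaments of the shaft. The other 4 were Calhm4, Tgm6, Gprc5d and Padi3, the last an enzyme that modifies trichohyalin in the sheath and medulla. These mice were singled out by the same values, so the shares are a description with no test.

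**Figure D3:**
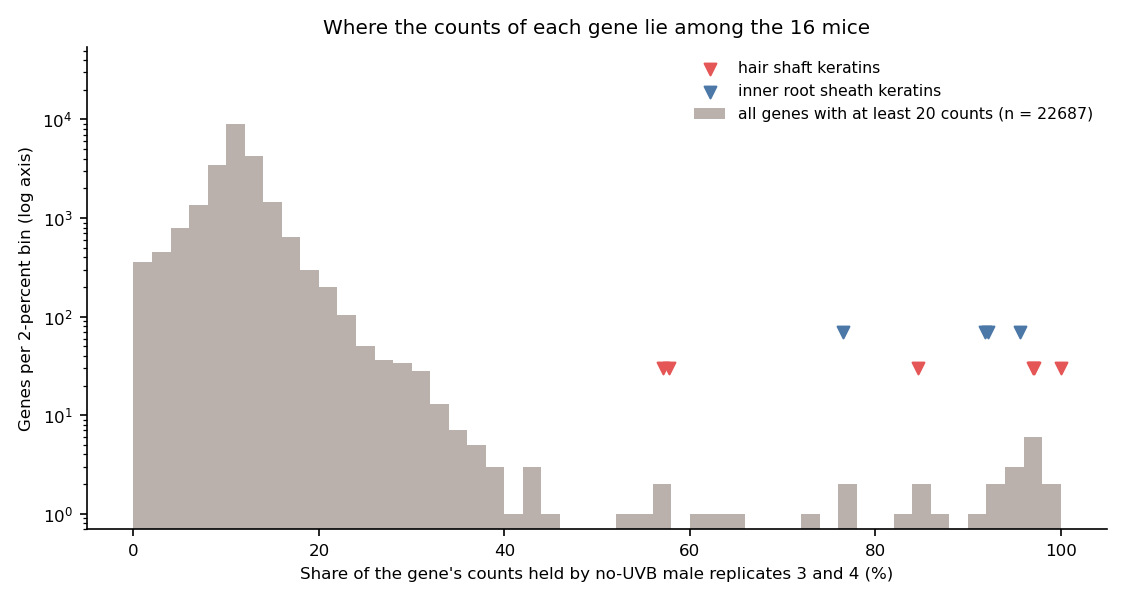
Share of each gene's counts, over the 16 mice, that came from no-UVB male replicates 3 and 4, on the horizontal axis in percent, with the number of genes per bin on a log vertical axis. Triangles mark the members, whose height carries no value, and all 10 lie between 57.1 and 100%, to the right of the bulk of 22687 genes around 11.1%.

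The response to UVB in males was tested first with edgeR's usual filter on low counts, filterByExpr. A call needed a log2 fold change past 1 together with a p, adjusted by the method of Benjamini-Hochberg, under 0.1, and 3.31% of 16535 genes were called lower and 4.08% higher. None of the 10 members passed that filter in the 8 males, since a gene needs about 10 counts in 4 mice, and so none was tested. With every gene that had at least 1 count in the fit, 3 of 10 members were called lower and 0 higher, where 2.91% of 31693 genes were called lower. Without robust estimation of the spread, all 10 were called lower, beside 3.01% of genes. The 3 were Krt33a (log2 fold change -2.81, SE 0.716, edgeR adjusted p = 0.00728), Krt35 (-3.90, SE 1.23, adjusted p = 0.0646) and Krt71 (-6.24, SE 2.19, adjusted p = 0.0930). The fall of Krt33a was 1 of the 13.8% of genes whose male groups did not overlap with UVB males lower.

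The other 7 members did not pass in males. Krt25 had a log2 fold change of -6.43 (SE 2.38, edgeR adjusted p = 0.111), Krt73 one of -5.05 (SE 1.98, adjusted p = 0.129) and Krt27 one of -3.60 (SE 1.45, adjusted p = 0.139). Krt86 had -2.92 (SE 1.45, adjusted p = 0.207). In the no-UVB males, 2 mice were high and 2 lay at or near the levels of the other groups, and the SD exceeded the mean for 8 of 10 members, all but Krt33a and Krt35. Krt34, Krt81 and Krt85 had no count in any UVB male, so that their folds are bounds, computed against 3 counts per library. Krt85 was at least 8.84-fold, Krt81 at least 2.93-fold and Krt34 at least 2.73-fold lower in UVB males, and edgeR gave adjusted p = 0.305, 0.328 and 0.297. As ratios of group means, no-UVB males had 75.6-fold more Krt71, 83.4-fold more Krt25 and 13.6-fold more Krt27 than UVB males.

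The calls in males rested on the same 2 mice. Without no-UVB male replicates 3 and 4, an alternative chosen after seeing the data, edgeR called 0 of the 7 members that still had a count, and 0 of the 5 with a count above 3 in either group reached an unadjusted p under 0.05. Krt71 then had a log2 fold change of 0.12 (SE 0.788, adjusted p = 0.930), Krt27 one of 0.48 (SE 0.590, adjusted p = 0.603) and Krt25 one of 0.85 (SE 1.37, adjusted p = 0.694). Their sign turned from negative to positive, and 3.14% of genes were called lower in that fit. Krt35 kept a negative value of -1.66 (SE 0.858, adjusted p = 0.171), and so did Krt33a at -0.89 (SE 0.842, adjusted p = 0.492). DESeq2's Wald test on all 8 males called 8 of 10 members lower, all but Krt34 and Krt81, where it called 2.39% of all genes lower. With apeglm shrinkage the folds of 6 of those 8 came to under 1 on the log2 scale, and Krt33a (-2.33) and Krt35 (-3.58) stayed past it, beside 1.42% of genes called lower. With all 16 mice in 1 fit, edgeR called 3 of the 3 members that passed filterByExpr lower (3.95% of genes) and 8 of 10 among all genes with a count (2.8% of genes). With 1 library left out, it called 1 to 7 members, beside 2.42 to 3.03% of genes. Krt33a was the 1 call without any of UVB male replicates 1 to 4 or no-UVB male replicate 3, and 7 were called without no-UVB male replicate 1 or 2.

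**Figure D4:**
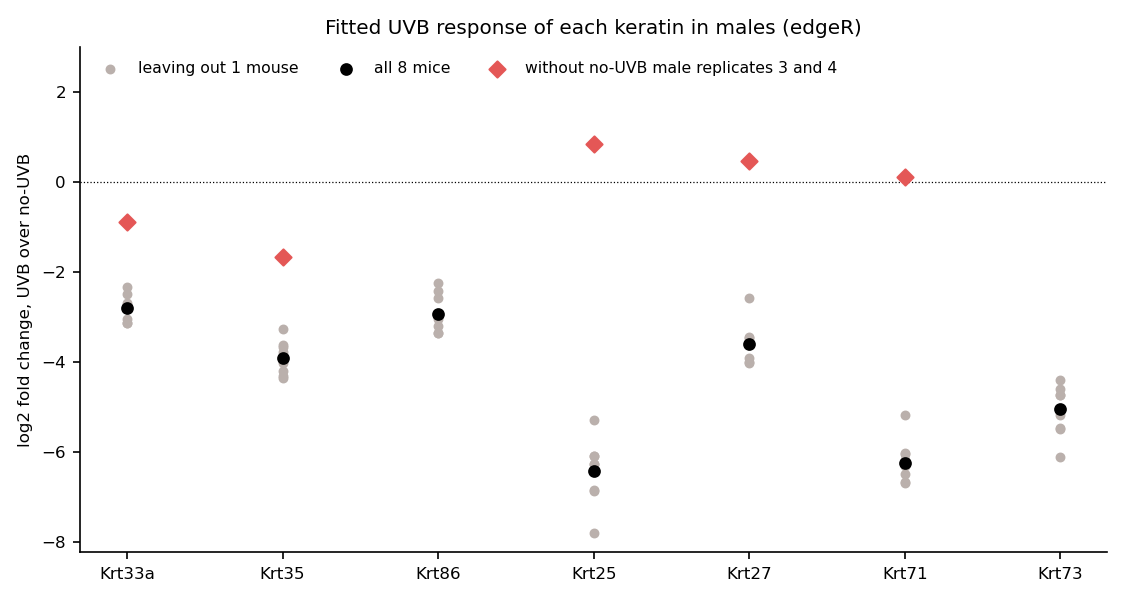
Fitted log2 fold change (UVB over no-UVB males, edgeR, every gene with at least 1 count) of the 7 members with a count in both male groups. Black points use all 8 mice, grey points leave out 1 mouse each and red diamonds leave out no-UVB male replicates 3 and 4, where Krt71 moves from -6.24 to 0.12. Krt73 and Krt86 have no diamond because both groups were then at 3 counts or fewer.

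In females, every member lay at or under 1.75 CPM with and without UVB. None of the 10 members passed filterByExpr, under which 1.08% of 16883 genes were called lower and 1.63% higher. With every gene with at least 1 count, 1 member was called by edgeR, Krt35, with a log2 fold change of -1.92 (SE 0.568, adjusted p = 0.0319), and 0.777% of 32425 genes were called lower. The mean of Krt35 was 0.420 ± 0.130 CPM in no-UVB females and 0.108 ± 0.0797 CPM in UVB females (SD, n = 4), a 3.88-fold difference from 43 and 10 counts. Its female groups were among the 5.97% of genes without overlap and with UVB females lower. DESeq2 called 0 members in females, where it called 0.623% of genes lower, and it gave Krt35 an unadjusted p of 0.00528, its 1 value under 0.05, with no adjusted p because its filter removed the gene. Without UVB female replicate 3 or no-UVB female replicate 3, edgeR called 0 members, and without UVB female replicate 4 or no-UVB female replicate 1 it called Krt35 lower and Krt25 higher. With 1 library left out, 0.645 to 0.891% of genes were called lower and 0.885 to 1.2% higher. With all 16 mice in 1 fit, 0 members were called by edgeR and 0 reached an unadjusted p under 0.05, where 1.28% of genes that passed filterByExpr and 0.836% of all genes with a count were called lower. Krt25 was the member nearest to a call in the other direction, at a log2 fold change of 2.34 (SE 0.945, edgeR adjusted p = 0.153) from 3 counts without UVB and 16 with UVB. Krt27 (0.12, SE 0.787, adjusted p = 0.973) and Krt71 (0.87, SE 1.08, adjusted p = 0.689) were not called, and Krt34, Krt81, Krt85 and Krt86 had at most 3 counts in every female.

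Without UVB, 2 inner root sheath keratins were called higher in males than in females, and the calls rested on no-UVB male replicates 3 and 4. In no-UVB male replicates 1 and 2, Krt71 (0.140 and 0.230 CPM) lay within the 0 to 0.649 CPM of no-UVB females. Krt27 there (0.233 and 0.368 CPM) lay within the 0.0654 to 0.865 CPM of no-UVB females. In the fit of all 16 mice, filterByExpr kept Krt35, Krt27 and Krt71, and 2 of these 3 were called higher in no-UVB males, where 1.13% of 17406 genes were. Krt71 was higher by a log2 difference of 5.57 (SE 1.41, edgeR adjusted p = 0.0282) and Krt27 by 3.76 (SE 1.04, adjusted p = 0.0418), while Krt35 had 1.62 (SE 0.648, adjusted p = 0.148). With every gene with at least 1 count, 4 of 10 members were called higher, Krt25, Krt71, Krt33a and Krt86, beside 0.588% of all genes. That count was 9 without robust estimation (0.733% of genes) and ran from 0 to 8 with 1 library left out (0.497 to 0.659% of genes). It was 0 without no-UVB male replicate 4, 1 without no-UVB male replicate 3 or any of the 4 no-UVB females, and 8 and 7 without no-UVB male replicates 1 and 2. DESeq2 called Krt25, Krt27, Krt71 and Krt73, where it called 0.56% of all genes. No member separated the 2 groups, which 4.64% of genes did with no-UVB males higher. Without no-UVB male replicates 3 and 4, edgeR called 0 of 3 members, where 1.5% of genes were called higher (0 of 9 and 0.757% with all genes with a count), 0 had an unadjusted p under 0.05, and the log2 difference of Krt71 was -0.74 and that of Krt27 -0.35. With 1 library left out and filterByExpr, the count ran from 1 to 3 of 3 members, beside 0.893 to 1.31% of genes. Krt27 lost its call without no-UVB female replicate 2 or no-UVB male replicate 4, and all 3 were called without no-UVB male replicate 1.

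After UVB, the sexes were not told apart by these keratins. Of the 3 members tested by filterByExpr in UVB males against UVB females, edgeR called 0, with 0 at an unadjusted p under 0.05 and 0 called by DESeq2, where edgeR called 1.37% of genes higher and 1.47% lower. Krt71 had a log2 difference of -1.54 (SE 2.17, edgeR adjusted p = 0.666), Krt35 one of -0.40 (SE 1.28, adjusted p = 0.864) and Krt27 one of -0.01 (SE 1.43, adjusted p = 0.997). The difference of the UVB responses, male minus female, was called by its adjusted p alone. It was called for 0 of 3 members by edgeR, with 2 at an unadjusted p under 0.05, where 4.25% of genes were called lower. Once no-UVB male replicates 3 and 4 were left out, the value for Krt71 was -0.81 (SE 1.51, edgeR adjusted p = 0.793), with 0 of 3 members called or at an unadjusted p under 0.05 beside 5.73% of genes, and without no-UVB male replicate 1 Krt71 was called (1.7 to 5.8% of genes were called lower with 1 library left out). With all 16 mice it was -7.11 for Krt71 (SE 2.60, adjusted p = 0.142), -3.77 for Krt27 (SE 1.74, adjusted p = 0.234) and -2.02 for Krt35 (SE 1.48, adjusted p = 0.463). DESeq2 called it for 3 members, Krt25, Krt27 and Krt71, beside 2.62% of all genes. With all genes with a count in the fit, edgeR called it for 0 of 10 members, where 1.43% of genes were called lower. Of these members, 2 had an unadjusted p under 0.05. Without no-UVB male replicates 3 and 4, edgeR called 0 members beside 2.01% of genes. Krt34, Krt81, Krt85 and Krt86 then had at most 3 counts in every mouse and could not be called. The spread among mice was unusual for these genes. The biological coefficient of variation that edgeR gave over 16 mice was 1.21 for Krt71, 0.930 for Krt27 and 0.659 for Krt35, against a median of 0.111 over all genes tested.

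Other keratins of the hair shared the pattern in part. Among the genes of other lists, those named for standing above or below all other mice were chosen after their values were seen. Of the 9 other shaft keratins with at least 20 counts, 4 stood above all other 14 mice in both no-UVB male replicates 3 and 4. Among them Krt33b, a cortex keratin, measured 0.692 and 0.516 CPM there and at most 0.0433 CPM elsewhere, and Krt87 measured 1.60 and 0.745 CPM against at most 0.316. Of the 4 other sheath keratins, Krt26 measured 1.26 and 1.66 CPM against at most 0.0865, and Krt72 measured 1.86 and 1.66 CPM against at most 0.216. Krt28 and Krt74, also of the sheath, overlapped the other mice. Krt31, a cortex keratin, measured 1.13 and 1.09 CPM against at most 0.419, and it was called lower in UVB males when all genes with a count were in the fit (-1.68, SE 0.565, edgeR adjusted p = 0.0285). By edgeR with filterByExpr, 1 of 2 tested rose and 1 fell in UVB males, 1 of 3 rose in UVB females and 1 of 4 was lower in no-UVB males than in no-UVB females. Krt84, a shaft cuticle keratin also found in nail and tongue, rose by 2.26 in males (SE 0.295, adjusted p = 9.19e-05) and by 1.24 in females (SE 0.264, adjusted p = 0.0116), from 0.384 ± 0.161 to 1.85 ± 0.358 CPM and from 0.507 ± 0.156 to 1.20 ± 0.210 CPM (SD, n = 4 each). Krt32, a type I cuticle keratin, fell in males (-1.08, SE 0.208, edgeR adjusted p = 0.00123), and Krt36 was lower in no-UVB males than in no-UVB females (-1.93, SE 0.557, edgeR adjusted p = 0.0448). None of the 4 other sheath keratins was called in any comparison with 1 of them tested (Krt28), or with all 4 tested in the fit of every gene with at least 1 count.

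As a sum without Krtap3-2, keratin-associated proteins were high in the same 2 mice as the members. Of 113 annotated Krtap genes, 98 had a count and 13 had at least 20. In no-UVB male replicates 3 and 4, 10 of those 13 held at least 50% of their counts. As a gene nearly absent elsewhere reaches 20 counts only through these 2 mice, that result is partly fixed by the cut. Krtap3-2, the most abundant, was present in all mice, at 5.50 and 8.02 CPM in these 2 and at 2.49 to 6.68 CPM in the other 14. The other 112 summed to 16.2 and 22.5 CPM in these 2 mice and to 0.262 to 2.16 CPM elsewhere. Krtap8-1, for example, measured 0.995 and 1.66 CPM against at most 0.0505 CPM, and Krtap11-1 measured 0.995 and 0.802 CPM against at most 0.186. Krtap3-2 alone passed filterByExpr and was called by edgeR for the difference of UVB responses. With every gene with at least 1 count in the fit, 24 of 96 Krtap genes were called lower and 1 higher in UVB males, where 2.91% of all genes were called lower, and 20 of those 24 had no count in no-UVB male replicates 1 and 2.

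A few structural partners of the sheath and shaft also stood higher in these 2 mice, while the sums of both lists lay within the range of the others. Tchh, which encodes trichohyalin, the protein that hardens the inner root sheath and medulla, measured 47.8 and 60.2 CPM in no-UVB male replicates 3 and 4 and 8.36 to 21.7 CPM elsewhere. Tchh was called lower in UVB males with filterByExpr (-1.24, SE 0.526, edgeR adjusted p = 0.0854), with means of 34.3 ± 23.4 CPM without and 14.3 ± 2.02 CPM with UVB (SD, n = 4), and it did not pass in the fit of all genes with a count (edgeR adjusted p = 0.190). Padi3 measured 1.26 and 1.89 CPM in these 2 mice against at most 0.454, Prr9 7.10 and 10.7 CPM against at most 5.04, and S100a3, a calcium-binding protein of the cuticle, 0.909 and 1.09 CPM against at most 0.527. Of the 11 sheath and medulla proteins and enzymes, Tchh and Padi3 were above all other mice in both, and of the 10 shaft partners Prr9 and S100a3 were. By edgeR with filterByExpr, 5 of 9 tested sheath and medulla genes were called higher and 1 lower in UVB males, and 2 of 8 higher and 0 lower in UVB females. Those that rose were Tgm3, Sprr1a, Crnn, Tchhl1 and Padi1 in males and Tgm3 and Tchhl1 in females, and Tgm3, Sprr1a and Padi1 also act in the cornifying epidermis. Of the shaft partners, Hephl1 was called higher and Crym lower in UVB males (7 tested), and Prr9 higher in UVB females (8 tested).

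Regulators and signals of the growing follicle did not show the contrast seen in the keratins. Of the 13 matrix transcription factors, only Msx1 lay above all other mice in both, at 3.03 and 4.30 CPM against at most 2.71. Hoxc13, which activates hair keratin genes, measured 4.46 and 4.12 CPM against 1.95 to 5.58 in the others, and Foxn1, which is needed for shaft differentiation, 6.84 and 4.58 CPM against 3.36 to 10.8. Of the 16 anagen signals, only Shh did so, at 0.346 and 0.172 CPM from 8 and 3 counts, against at most 0.156 CPM. Of the telogen bulge genes, Lgr5, which marks follicle stem cells, stood above, at 33.8 and 28.5 CPM against a median of 15.3 CPM in the others, and the list of 14 summed to 4453 and 4416 CPM, within the 2960 to 5649 CPM of the other mice. Pigment genes of the growing hair were not raised as a list, with sums of 67.3 and 68.5 CPM against 56.2 to 146.3. Among them Tyrp1 (6.62 and 8.13 CPM) and Dct (8.96 and 8.31 CPM), both enzymes of melanin synthesis, were below all other mice, and Mlana (5.32 and 6.13 CPM) was above. By edgeR with filterByExpr, 1 of 12 matrix factors was called higher and 0 lower in UVB males (Ovol1) and 1 of 13 anagen signals lower in UVB males (Bmp4), and no other matrix factor or anagen signal and no pigment gene was called for UVB in either sex. Between the sexes without UVB, the pigment gene Pmel was called lower and the matrix factor Dlx2 higher in males, where Dlx2 was at 1.77, 1.01, 0.433 and 0.458 CPM in no-UVB male replicates 1 to 4. The part that the growth state of the follicles had in the keratin levels was not tested.

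**Figure D5:**
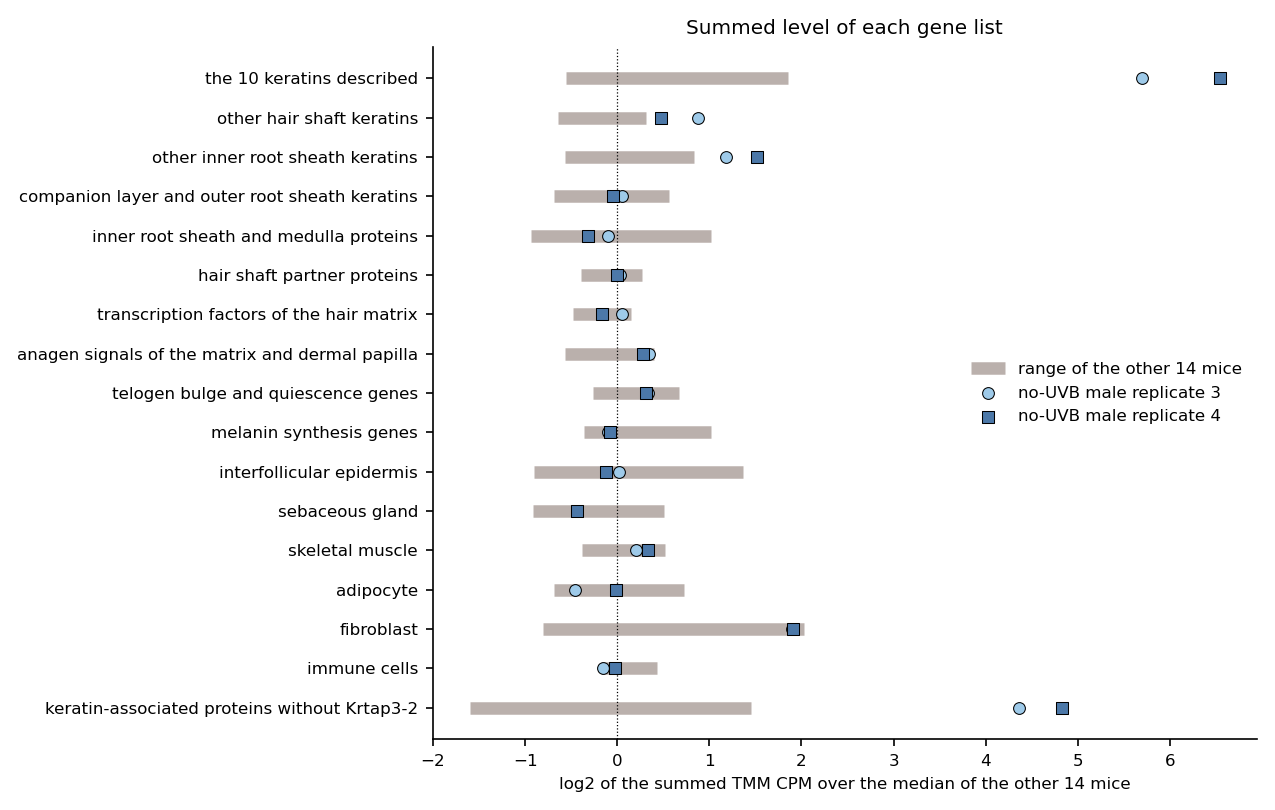
Summed TMM CPM of each gene list as a log2 ratio to the median of the other 14 mice, with grey bars for the range of those 14 mice and symbols for no-UVB male replicate 3 (circle) and replicate 4 (square). The members, at 49.6 and 88.8 CPM against at most 3.44 CPM, and the keratin-associated proteins without Krtap3-2 lie far outside the grey bars. The other hair keratins lie just outside, while the remaining lists lie within them. A sum follows its most abundant genes. Igfbp5, for example, gave 844.6 and 833.6 CPM of the 1085 and 1042 CPM of the anagen signals in replicates 3 and 4.

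Markers of the other parts of the skin did not separate the 2 mice from the rest. Skeletal muscle markers summed to 18199 and 19894 CPM against 12128 to 22632, adipocyte markers to 1351 and 1842 against 1155 to 3083, interfollicular epidermis markers to 12087 and 10948 against 6379 to 30856, sebaceous gland markers to 1780 and 1772 against 1275 to 3415 and immune cell markers to 270.1 and 295.2 against 266.2 to 406.0. The sum of fibroblast markers was high in each of the 4 no-UVB males (78989 to 86184 CPM), and the other 12 mice had 12102 to 39253 CPM. Most of it came from the collagen genes Col1a1, Col1a2 and Col3a1, with means of 29583, 29244 and 19978 CPM in no-UVB males. Dcn, of the same list, overlapped between groups. Its means were 2923 CPM in no-UVB males, 2372 in UVB males, 2568 in no-UVB females and 2576 in UVB females. Companion layer and outer root sheath keratins (3264 and 3047 CPM) lay within 1955 to 4667 CPM. By edgeR with filterByExpr, UVB males against no-UVB males gave calls for 6 of 7 epidermis markers (all higher), 2 of 7 sebaceous (higher), 2 of 7 immune (higher), 1 of 7 muscle (lower), 2 of 6 fibroblast (lower), 1 of 4 companion and outer root sheath (Krt15, lower) and 1 of 14 bulge genes (Krt15, lower). In females the calls were 4 of 7 epidermis markers (higher), 1 sebaceous (higher), 1 immune (higher) and Krt15 and Fgf18 (lower). The part of these tissues in the keratin levels was not tested.

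The genes whose levels varied most like the members were found by Pearson's correlation with the mean of the members, over the 16 mice, of log2 CPM as deviations from the group means. Among 15139 other genes with a mean of at least 1 CPM, the 10 closest were Nab2 (r = 0.942), E2f7 (0.923), Tchh (0.902), Cdca3 (0.902), Dclre1a (0.901), Iglon5 (0.894), E2f2 (0.894), Apol7c (0.886), Gm16973 (0.881) and Gab2 (0.864). Nab2, a co-repressor of EGR factors, measured 47.4 and 46.8 CPM in no-UVB male replicates 3 and 4 and 27.4 and 25.5 CPM in replicates 1 and 2. E2f7, E2f2 and Cdca3, genes of the cell cycle, were also higher in replicates 3 and 4 than in replicates 1 and 2, with E2f7 at 5.89 and 6.59 CPM against 3.91 and 4.09. For these 3 genes replicate 1 was the lowest of all 16 mice, and replicates 3 and 4 did not stand above the other mice. The points share their libraries, and the coefficients rest mainly on the contrast within 4 mice, so they are a description.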

How the data were processed

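RNA was measured by sequencing in whole dorsal skin of 16 mice, 4 in each of 4 groups set by the sample labels. Per the submitters' processing notes, the authors aligned reads with STAR to GRCm39. The aligner's version and the annotation release are not given in the sources used here. The deposited files hold raw counts of reads per gene with 3 count columns, and the 4th column (reads on 1 strand) was used. The other strand held 3.63 to 4.23% of reads. Reads mapping to several places are listed at 0, so near-identical genes lose reads. Of 55359 gene rows, 54749 were named by GENCODE M39.

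The 10 members and all gene lists were chosen with earlier results of these data known. Counts were scaled by TMM and tested with edgeR 4.0.16 (quasi-likelihood, robust) in R 4.3.3, within each sex for UVB and over 16 mice for sex and for the difference of responses. Genes passed filterByExpr (minimum count 10, total 15). Since the members mostly failed it, their fold changes come from the fit of every gene with at least 1 count. Calls needed a log2 change past 1 and a p under 0.1 after Benjamini-Hochberg adjustment, and that p alone for the difference of responses. DESeq2 1.42.0 with apeglm 1.24.0 was an alternative, as were other scalings, filters, counts without regard to strand, a replicate block and leaving out each mouse. The scripts were tested on simulated data. Intervals are 95% ones and cover counting error only. A limit of 3 counts stands for a count of 0. Replicates are separate mice, and all 24 pairs within groups differed beyond sampling noise (chi-square per degree of freedom 10.4 to 109). Depth was 16495776 to 33404831 reads on genes.

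From each other list at most 4 called genes of largest change were to be named, or those of highest level, with the 10 genes most like the members. Genes named beyond this were chosen after their values were seen.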

Additional observations from a re-analysis of the deposited data

Results flagged for a closer look

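Krt71 in UVB female replicate 1 measured 1.75 CPM, from 34 counts, while the other 3 UVB females measured 0.139 to 0.257 CPM. Its gap to the nearest of them was 0.927 of the range of the group, above Dixon's 95% critical value for 4 samples. Of 22 groups of values examined in this way it was the 1 that stood out, and chance gives about 1 in 20. The same mouse had the highest level outside no-UVB male replicates 3 and 4 for 4 of the 9 members with a count there, Krt34, Krt25, Krt27 and Krt71. Without it, the fitted log2 change of Krt71 in females went from 0.87 to -0.50. The cause was not tested.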

How the results depend on the processing

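With filterByExpr, no member was tested for UVB in males, so that 0 were called. The count was 3 with every gene with at least 1 count (2.91% of all genes lower), 8 by DESeq2 (2.39%), 2 with apeglm (1.42%), 3 with all 16 mice in 1 fit (3.95%) and 0 to 1 with 1 mouse left out (2.83 to 4.22%). In females the count was 0, again with no member tested (1.08% of genes lower). It was 1 with every gene with at least 1 count (0.777% of all genes lower). Between no-UVB males and no-UVB females it was 2, then 4 with every such gene, 4 by DESeq2 (0.56% of all genes higher), 0 with at least 10 counts in every mouse (which left no member), 1 to 3 with 1 mouse left out (0.893 to 1.31%) and 0 without no-UVB male replicates 3 and 4 (1.5%). For the difference of UVB responses it was 0 (4.25% of genes lower). It was then 3 by DESeq2 (2.62%) and 0 to 1 with 1 mouse left out (1.7 to 5.8%). Fits of every gene with at least 1 count combined with another choice, and those without both mice, were added after seeing the data. In males these called 3 members (2.91% of all genes lower), then 10 without robust estimation (3.01%), 8 by DESeq2 (2.39%), 8 with all 16 mice (2.8%), 1 to 7 with 1 mouse left out (2.42 to 3.03%) and 0 without both mice (3.14%). With counts without regard to strand, Krt71 lost its call while Krt33a and Krt35 kept theirs. The share of all genes called in that fit is not given here. In females they called 1 (0.777% of all genes lower), then 0 by DESeq2 (0.623%), with apeglm (0.333%) or with all 16 mice (0.836%). With 1 mouse left out they called 0 to 2, Krt25 being called higher (0.645 to 0.891% of all genes lower and 0.885 to 1.2% higher). Between the sexes without UVB they called 4 (0.588% of all genes higher), then 9 without robust estimation (0.733%), 0 to 8 with 1 mouse left out (0.497 to 0.659%) and 0 without both (0.757%). For the difference they called 0 (1.43% of all genes lower), then 2 without robust estimation (1.88%) and 3 by DESeq2 (2.62%).

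No pairing of mice was assumed from the replicate numbers. Deviations of same-numbered mice correlated at -0.0715 to 0.0133 in males and -0.117 to 0.218 in females, which cannot exclude a pairing. With a replicate block, 6 members were called for UVB in males in the fit of every gene with at least 1 count (2.23% of all genes lower), and 6 between the sexes without UVB (0.594% higher).

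Directions turned in that fit without both mice, for UVB in males to 0.85 for Krt25, 0.48 for Krt27 and 0.12 for Krt71. Between the sexes they turned to -0.63 for Krt35, -0.37 for Krt27, -0.75 for Krt71 and -1.23 for Krt73, and for the difference of responses to 0.21 for Krt35, 0.31 for Krt27, 0.08 for Krt33a (from -1.82) and 2.82 for Krt73 (from -3.10). In females, Krt27 turned to -0.60 without UVB female replicate 1 and -0.28 without no-UVB female replicate 3 (range -0.60 to 0.85), and Krt71 turned to -0.50 without UVB female replicate 1 (range -0.50 to 1.45). The cause was not tested. Of the other values for single genes, 417 kept direction and side of the threshold, 50 came to pass it and 44 lost it. Outside the 2 mice each library held at most 67 counts of all members together, which limits what can be detected there.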
